A study of Mus musculus with 16 samples.

Results

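The regions studied were the ATAC-seq peaks around 6 genes of the fibrogenic programme that TGF-β signalling drives, Col6a1, Has2, Itga5, Ccbe1, Ccn4 (also named Wisp1) and Il11. A peak belonged to a gene when the nearest protein-coding transcription start site to its midpoint, within 100 kb, was that of the gene. By this rule 71 of 136630 nuclear peaks were members, namely 14 at Col6a1 on chromosome 10, 18 at Has2, 8 at Itga5 and 12 at Ccn4 on chromosome 15, 17 at Ccbe1 on chromosome 18 and 2 at Il11 on chromosome 7. Distance alone made the assignment, and the accessibility values had no part in it. Of the member peaks, 6 were promoter peaks (1 for each gene, with the midpoint within 1000 bp of the start site), 20 lay in introns and 45 between genes.

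ATAC-seq counts the fragments that the Tn5 transposase cuts from open chromatin, so a higher normalised count means a more accessible region. The 16 samples were mKate2+ tumour cells, 60000 sorted per sample, from KC-shSmad4 pancreatic ductal adenocarcinoma cells grown in 6 to 8-week-old female Foxn1nu nude mice, each sample from its own mouse. The cells carry Ptf1a-Cre, which acts in the pancreatic lineage, Rosa26 rtTA3-IRES-mKate2 and a Col1a1 homing cassette with a doxycycline-inducible, GFP-linked shRNA against Smad4. They came from male embryonic stem cells of mixed C57BL/6J;129 background and also carry luciferase. Every host began on doxycycline, and both states therefore carry the same alleles and reporter. Cells were injected into the pancreas (Panc), into the spleen to seed the liver (Liv) or into the tail vein to seed the lungs (Lung). In the Smad4-off groups (Panc_OFF, n = 3; Liv_OFF, n = 2; Lung_OFF, n = 3) doxycycline was kept on. In the restored groups (Panc_ON, n = 3; Liv_ON, n = 2; Lung_ON, n = 3) it was withdrawn for 14 days, starting after 4 weeks for the pancreas, 5 for liver and 6 for lung tumours of growth. Organ, injection route and growth time therefore cannot be told apart, and the cell line behind each sample is not stated. The nude host keeps a stroma but lacks mature T cells.

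TGF-β binds a receptor kinase pair that phosphorylates SMAD2 and SMAD3. These bind SMAD4 and enter the nucleus, where the complex occupies short GTCT-type elements together with partner factors such as AP-1. In the pancreas the pathway is known both for arrest and death of epithelial tumour cells and for matrix production, and SMAD4 is lost in many pancreatic ductal adenocarcinomas. Among the 6 genes, Col6a1 encodes the α1 chain of collagen VI, a microfibrillar collagen around cells. Has2 encodes a plasma membrane synthase of hyaluronan, the glycosaminoglycan that swells pancreatic tumour stroma. Itga5 encodes the integrin chain that pairs with β1 in the fibronectin receptor. Ccn4 encodes a secreted matricellular protein, Ccbe1 a secreted protein required for VEGF-C processing and lymphatic growth, and Il11 a cytokine of the IL-6 family that signals through gp130.

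Recovered reads in peaks ran from 22.5 M to 37.5 M per sample, with a median of 36 to 76 reads per peak. Member peaks had a median normalised count of 62.7 against 57.5 over all nuclear peaks, and 10 of the 71 had a mean under 20. The sort was checked with start-site peaks of cell type markers. All 6 ductal epithelial markers had a peak, with a summed normalised count of 45609 to 45694 in Liv_OFF, 34225 to 43323 in Liv_ON, 19351 to 29265 in Lung_OFF, 22632 to 25303 in Lung_ON, 17679 to 20631 in Panc_OFF and 12409 to 16504 in Panc_ON. All 6 fibroblast markers had a peak as well, and their sum was far lower, at 183 to 206 in Liv_OFF, 146 to 254 in Liv_ON, 184 to 528 in Lung_OFF, 196 to 230 in Lung_ON, 857 to 1535 in Panc_OFF and 617 to 1530 in Panc_ON. Of the hepatocyte markers only Ttr had a peak, and Alb, Apoa1, Fgb, Cps1 and Cyp2e1 had none.

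Sequence is shown for 5 windows of 300 bases, because the comparisons turn on their peaks. The first holds the bases before the start site of Col6a1, whose promoter peak had the largest liver-lung difference of the 6 with Smad4 off. The others are the centre of the Itga5 peak 4.3 kb upstream, higher after restoration on average, the centre of the Has2 peak 80.4 kb upstream, 1 of 3 peaks higher in liver, the centre of the Ccn4 peak 21.6 kb upstream, with the largest averaged restoration effect, and the centre of the Il11 peak 2.1 kb downstream. Each is read from GRCm38 (mm10) on the strand of the gene, 5′ to 3′. Capitals mark matches, on either strand, to a SMAD element (GTCTG), AP-1 (TGANTCA), RUNX (TGTGGTT), KLF (GGGTGTG), TEAD (GGAATG), FOX (TGTTTAC), an HNF1 half-site (GTTAAT) or ETS (CGGAAGT), which share no overlapping match here.
Col6a1 upstream window, chr10:76726169-76726468, minus strand: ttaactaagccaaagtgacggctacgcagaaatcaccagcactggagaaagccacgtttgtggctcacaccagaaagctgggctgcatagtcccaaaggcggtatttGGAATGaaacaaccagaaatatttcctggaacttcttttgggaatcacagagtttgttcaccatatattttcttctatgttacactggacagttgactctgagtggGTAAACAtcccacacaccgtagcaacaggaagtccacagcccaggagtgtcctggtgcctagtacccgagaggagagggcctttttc
Has2 80.4 kb upstream, chr15:56774751-56775050, minus strand: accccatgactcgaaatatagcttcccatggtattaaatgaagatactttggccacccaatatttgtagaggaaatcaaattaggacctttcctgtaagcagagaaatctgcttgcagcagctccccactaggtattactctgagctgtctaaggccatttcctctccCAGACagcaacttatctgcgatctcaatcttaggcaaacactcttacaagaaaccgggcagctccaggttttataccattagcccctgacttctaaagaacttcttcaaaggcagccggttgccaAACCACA
Itga5 4.3 kb upstream, chr15:103370943-103371242, minus strand: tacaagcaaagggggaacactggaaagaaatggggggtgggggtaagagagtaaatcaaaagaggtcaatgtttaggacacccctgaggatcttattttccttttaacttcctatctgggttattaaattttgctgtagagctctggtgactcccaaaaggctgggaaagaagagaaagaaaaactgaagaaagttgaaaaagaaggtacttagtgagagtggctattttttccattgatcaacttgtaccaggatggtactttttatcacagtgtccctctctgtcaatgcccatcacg
Ccn4 21.6 kb upstream, chr15:66869614-66869913, plus strand: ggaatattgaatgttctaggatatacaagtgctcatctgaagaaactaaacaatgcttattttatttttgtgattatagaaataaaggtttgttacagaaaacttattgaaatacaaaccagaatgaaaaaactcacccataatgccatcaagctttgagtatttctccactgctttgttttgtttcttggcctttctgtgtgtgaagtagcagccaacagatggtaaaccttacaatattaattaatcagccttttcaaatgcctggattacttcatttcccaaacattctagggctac
Il11 2.1 kb downstream, chr7:4780643-4780942, minus strand: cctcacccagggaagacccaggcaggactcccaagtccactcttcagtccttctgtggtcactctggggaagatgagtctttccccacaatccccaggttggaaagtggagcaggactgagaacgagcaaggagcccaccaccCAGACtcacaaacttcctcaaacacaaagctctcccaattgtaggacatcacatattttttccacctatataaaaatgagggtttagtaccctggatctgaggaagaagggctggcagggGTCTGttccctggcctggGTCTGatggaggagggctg

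The Col6a1 window held 1 TEAD and 1 FOX match, letters that 20.1% and 6.15% of all nuclear peaks hold in their central 300 bases. The Has2 window held 1 SMAD and 1 RUNX match. The Il11 window held 3 SMAD matches, and neither the Itga5 nor the Ccn4 window held any of the 8 motifs. Over all members, 53 of 71 central windows (74.6%) held a SMAD match against 52.7% of all nuclear peaks, and 27 (38.0%) an AP-1 match against 34.1%. RUNX was matched in 7.04% of members against 10.9% of all peaks, KLF in 7.04% against 8.66%, TEAD in 18.3% against 20.1%, FOX in 4.23% against 6.15%, the HNF1 half-site in 7.04% against 10.7% and ETS in 0 members against 1.52%. A match describes letters and is no evidence of binding, and no test was made of these shares.

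With Smad4 off, the first question was how accessible each locus was in liver against lung. Most member peaks were less accessible in the liver, least clearly at Has2. Of the 71 member peaks, 42 were lower and 3 higher in Liv_OFF than in Lung_OFF (limma, called at a log2 fold change of 0.58 or more in either direction with an adjusted p, over all peaks, no higher than 0.1). Over all nuclear peaks 49.7% were called, 26.8% lower and 22.9% higher. The median log2 fold change of the members was -1.31, against 0.0024 over all peaks. Replicates did not overlap, with the liver below the lungs, at 43 members, where 31% of all peaks had this pattern. The 42 lower peaks were spread over all 6 genes, as 10 of 14 at Col6a1, 9 of 12 at Ccn4, 6 of 8 at Itga5, 9 of 17 at Ccbe1, 6 of 18 at Has2 and both at Il11. The Has2 share, 33.3% lower, was near the 26.8% of all peaks, and the 3 higher peaks were all at this gene. In bulk cells, fewer cells with an open region and less opening per cell cannot be told apart. Markers of other cell types moved with this contrast. Summed endothelial counts (4 of 5 markers with a peak) were 131 to 146 in Liv_OFF against 227 to 845 in Lung_OFF. Within that list Cdh5 (means of 33.5 and 293) and Pecam1 (24.0 and 96.9) were lower in liver. Kdr was about equal (17.8 and 17.8) and Tie1 was higher (63.2 and 37.0). Leukocyte counts (2 of 5, with no peak at Ptprc) were 177 to 179 against 255 to 538. The acinar marker Prss2, the only 1 of 4 with a peak, read 79.4 to 83.9 against 181 to 253. The endothelial and leukocyte sums and Prss2 were lower in liver without overlap, as 43 member peaks were. Fibroblast counts (183 to 206 against 184 to 528) overlapped. Ductal counts were higher in liver without overlap, and so was Ttr, at 164 to 231 against 52.5 to 96.7. The summed alveolar count (2 of 5 markers, with no peak at Sftpc) was also higher, at 286 to 376 against 185 to 196. Its 2 markers disagreed, as Hopx was higher in liver (means of 312 and 151) and Ager lower (18.8 and 37.6). The part of these cell types in the result was not tested.

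**Figure D1:**
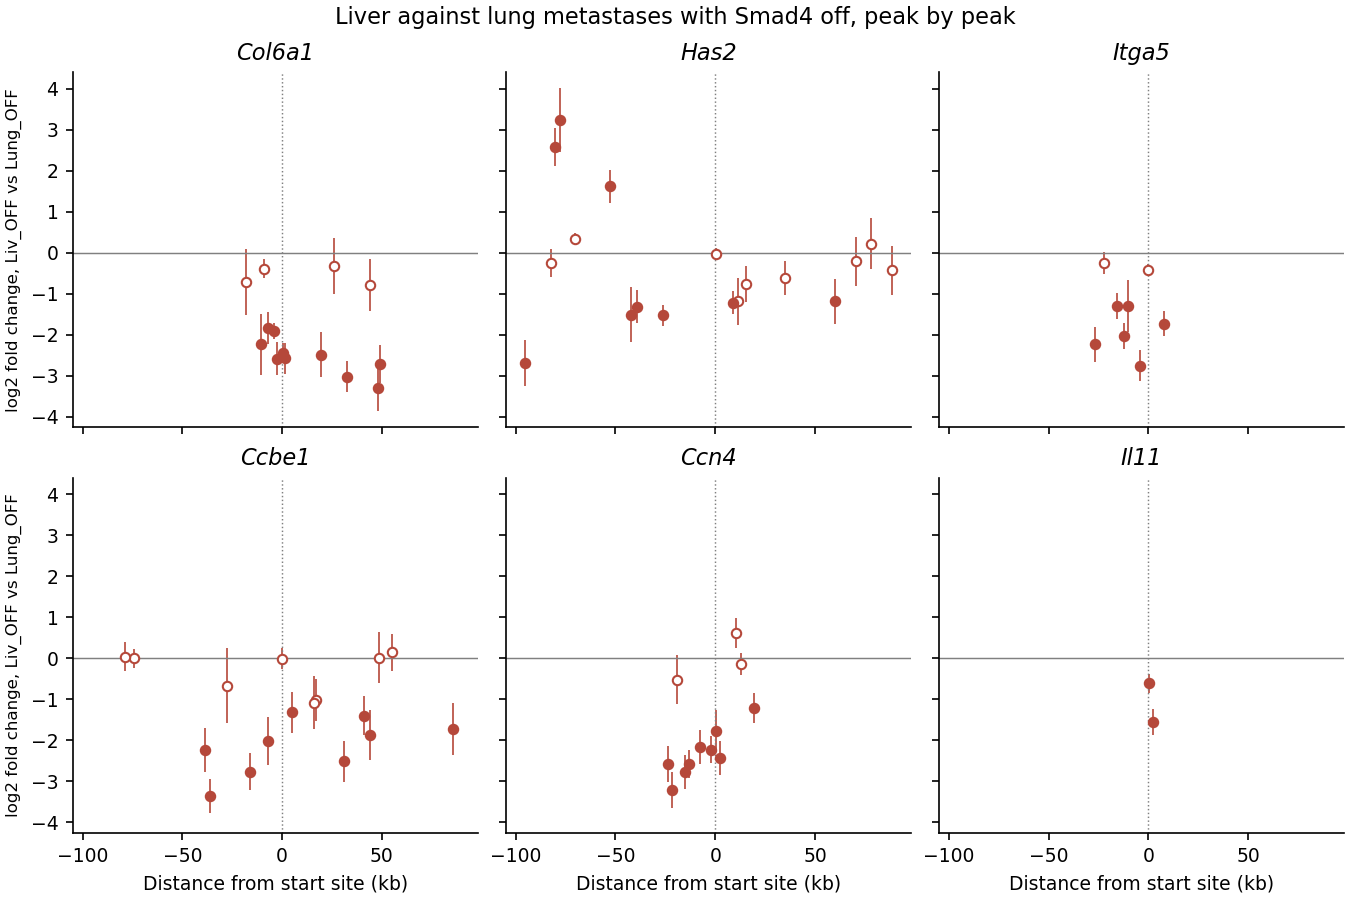
Log2 fold change of Liv_OFF over Lung_OFF (y axis) for each member peak against its distance from the gene's start site in kb (x axis, negative is upstream), 1 panel per gene, with error bars of 1 SE and filled points for called peaks. Lower peaks lie on both sides of the start sites and the 3 higher peaks are all at Has2, upstream.

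Promoter peaks were also read apart from the others. Of the 6 promoter peaks 3 were called, all lower in liver, and of the 65 other members 39 were lower and 3 higher. The shares called lower, 50% and 60%, were close, and 6 promoter peaks are too few to tell them apart. At the Has2 promoter the normalised counts were 1413 and 1382 in Liv_OFF and 1486, 1245 and 1539 in Lung_OFF, and at the Ccbe1 promoter 246 and 238 against 252, 189 and 302. Both pairs of groups overlapped, with log2 fold changes of -0.02 (SE 0.15) and -0.01 (SE 0.25) and adjusted p of 0.921 and 0.982 (limma), so no difference was detectable there. The signs of these values near 0 turned under some alternatives. The Itga5 promoter differed more, at 1022 and 985 in Liv_OFF against 1614, 1116 and 1315 in Lung_OFF, with a log2 fold change of -0.41 (SE 0.13), short of the fold threshold although the replicates did not overlap. It passed the threshold with quantile normalisation, GC correction or regional centring.

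**Figure D2:**
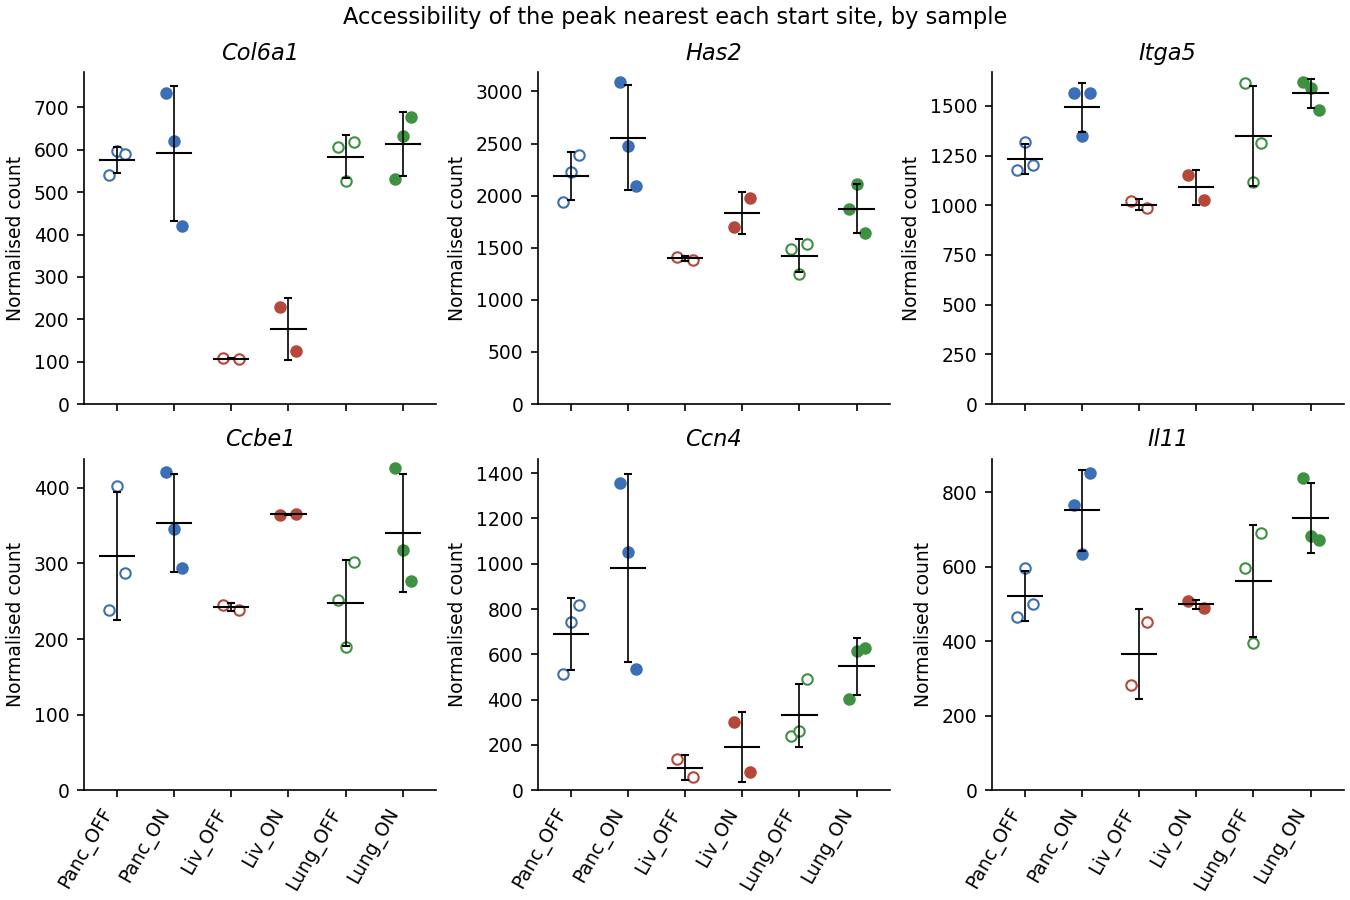
Normalised count of the peak nearest the start site of each gene (y axis) in the 16 samples by group (x axis), with open points for Smad4 off, filled points for restored, a horizontal bar for the group mean and error bars of 1 SD. Within each Smad4 state the liver points lie below those of the other organs at Col6a1 and Ccn4, and overlap with the lungs at Has2 and Ccbe1.

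The matrix genes differed from each other. The Col6a1 promoter (chr10:76725327-76726587, as the deposited peak name gives it) had normalised counts of 109 and 106 in Liv_OFF, 606, 527 and 619.5 in Lung_OFF, and 541, 597 and 591 in Panc_OFF. The liver samples were the lowest without overlap, at about the same level in both mice. A neighbouring peak 4.3 kb upstream, the most accessible at the locus, read 176 and 205 in Liv_OFF against 735, 640 and 794 in Lung_OFF, and it was lower by a log2 fold change of -1.92 (SE 0.19, adjusted p = 1.49e-05). The largest differences at Col6a1 were at low or moderate peaks past the 3′ end of the gene. The peak 47.8 kb downstream read 1.23 and 5.57 against 59.8, 21.7 and 37.9 (log2 fold change -3.30, SE 0.56), and the peak 32.5 kb downstream read 8.64 and 18.1 against 154, 72.8 and 115 (-3.02, SE 0.38). The peak 49.1 kb downstream read 4.94 and 18.1 against 74.6, 53.3 and 81.9 (-2.71, SE 0.47). Of the 14 peaks none was higher in liver, and the 4 without a call had log2 fold changes between -0.78 and -0.32.

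Has2 was the gene with peaks in both directions. The intron peak 8.8 kb downstream read 80.2 and 75.2 in Liv_OFF against 135, 183 and 241 in Lung_OFF, and 336, 499 and 519 in Panc_OFF, so that the organs were separated in the order liver, lung, pancreas. Its liver-lung log2 fold change was -1.21 (SE 0.29, adjusted p = 0.00298). The broad peak 26.2 kb upstream read 167 and 177 against 641, 312 and 609 (-1.52, SE 0.26). In contrast, the peak 80.4 kb upstream read 85.2 and 114 in Liv_OFF against 18.4, 17.4 and 12.1 in Lung_OFF and 19.6, 17.0 and 11.1 in Panc_OFF. Both liver samples were above every sample of the other organs there, by 2.58 on the log2 scale (SE 0.47, adjusted p = 0.000512). The other liver-high peaks were 77.6 kb upstream (21.0 and 40.4 against 4.60, 2.17 and 0.862, log2 fold change 3.23) and 52.7 kb upstream (log2 fold change 1.62). Counts at the former rest on few reads. The largest decrease at Has2 was also at a low peak, 95.6 kb upstream, which read 3.70 and 1.39 in Liv_OFF against 39.6, 12.0 and 18.1 in Lung_OFF without overlap (log2 fold change -2.68, SE 0.57, adjusted p = 0.00146).

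At the fibronectin receptor chain Itga5, the flanks carried the difference. The peak 4.3 kb upstream read 83.9 and 55.7 in Liv_OFF, 833, 263 and 463 in Lung_OFF, and 405, 572 and 544 in Panc_OFF. Liver was lowest without overlap and Lung_OFF replicates were spread over a wide range, and the log2 fold change was -2.75 (SE 0.38, adjusted p = 7.89e-05). The peaks 26.8 kb and 12.0 kb upstream and 8.0 kb downstream, in an intron, were also lower, by log2 fold changes of -2.23, -2.03 and -1.72.

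The secreted factors followed. At Ccn4 the promoter peak read 139 and 59.9 in Liv_OFF against 238, 261 and 492 in Lung_OFF (log2 fold change -1.76, SE 0.50, adjusted p = 0.00897). The groups did not overlap, but the call was lost without Liv_OFF replicate 2, at -1.16. It was also lost, at -1.02, when member peaks alone were centred on the peaks within 5 Mb of their gene's start site. The Ccn4 peak 21.6 kb upstream was near the floor in liver, at 2.47 and 4.18, against 44.2, 25.0 and 50.8 in Lung_OFF (-3.21, SE 0.44). The peaks 15.3 and 13.3 kb upstream were lower by log2 fold changes of -2.77 (SE 0.42) and -2.57 (SE 0.35). The most accessible Ccn4 peak on average, 7.6 kb upstream, read 83.9 and 68.3 against 419, 175 and 545 (-2.16, SE 0.42). The region around Ccn4 as a whole lay low in Liv_OFF, with a median log2 deviation from the mean over all samples of -0.67 (-0.68 to -0.66), and in Liv_ON at -0.43. Around Ccbe1 and Has2 the Liv_OFF deviation was -0.37 and -0.31, and around Col6a1, Itga5 and Il11 it was 0.20, 0.31 and 0.35. With regional centring 46 member peaks were called in this contrast, but only member peaks were centred. That count therefore has no matching share of all peaks.

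At Ccbe1 the largest difference was at the peak 36.1 kb upstream, which read 23.4 and 16.7 in Liv_OFF against 328, 110 and 268 in Lung_OFF (log2 fold change -3.36, SE 0.42, adjusted p = 4.22e-05). The peaks 16.1 kb upstream and 31.2 kb downstream, the latter in an intron, were lower by log2 fold changes of -2.76 and -2.51. The Il11 peak 2.1 kb downstream read 86.4 and 86.4 in Liv_OFF against 210, 172 and 460 in Lung_OFF, without overlap (-1.55, SE 0.33, adjusted p = 0.00139). The Il11 promoter read 281 and 451 against 596, 396 and 689, which overlapped. Its call (-0.61, SE 0.23, adjusted p = 0.0343) was lost with only the compared groups and with thresholds of 1 and 0.05. It was also lost without Liv_OFF replicate 1 or without Lung_OFF replicate 1 or 3.

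**Figure D3:**
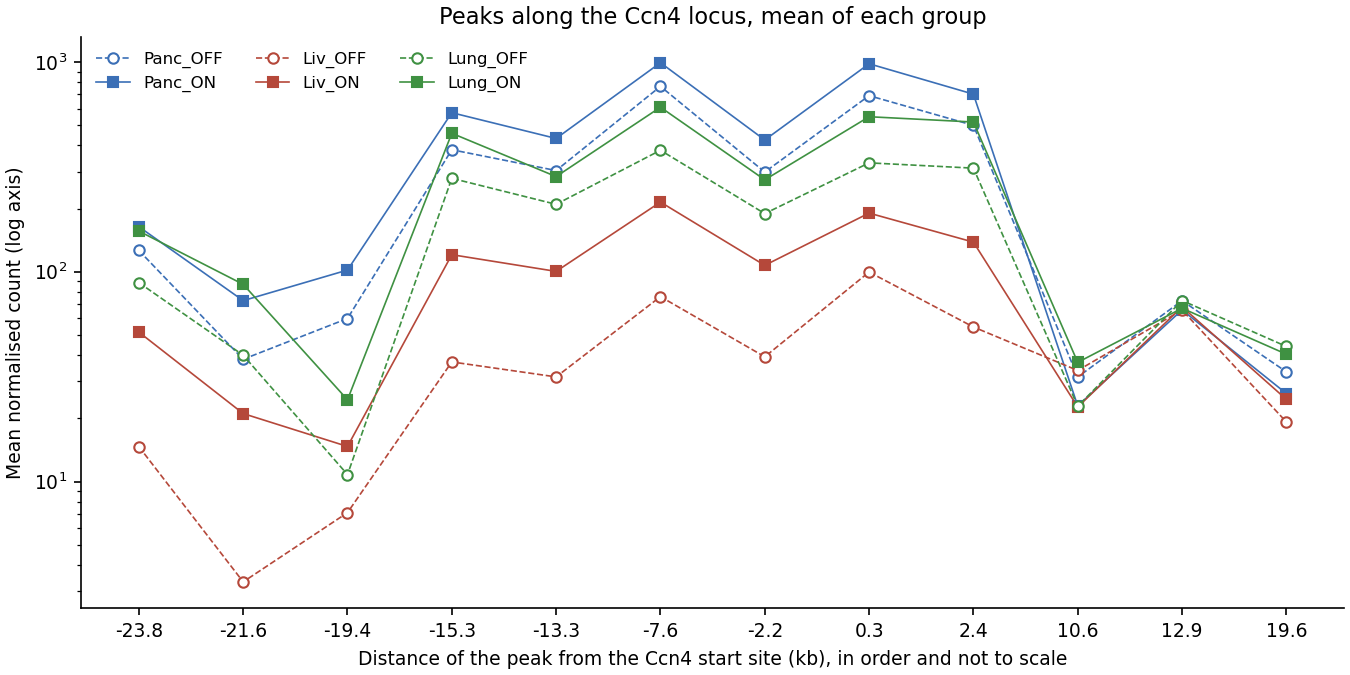
Group mean normalised count (y axis, log scale) of the 12 Ccn4 peaks in order of their distance from the start site in kb (x axis, negative is upstream, not to scale), for the 6 groups (open circles Smad4 off, filled squares restored). From 23.8 kb upstream to 2.4 kb downstream the Liv_OFF means are the lowest of the 6 groups, and the intron peak 12.9 kb downstream is close to equal in all groups (Liv_OFF over Lung_OFF -0.14).

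The pancreas served as the second reference. Against Panc_OFF, 56 member peaks were lower and 3 higher in Liv_OFF, where 58.5% of all peaks were called (32.3% lower, 26.2% higher), and the member median was -2.20. Lung_OFF was nearer to Panc_OFF, with 14 members lower and 1 higher, where 17.3% of all peaks were called (10.7% lower, 6.59% higher), and a median of -0.31. The peak higher in the lungs was the Col6a1 peak 49.1 kb downstream, at 74.6, 53.3 and 81.9 in Lung_OFF against 41.0, 20.5 and 25.0 in Panc_OFF (log2 fold change 1.28, SE 0.42, adjusted p = 0.0562). Those lower in the lungs included the Has2 promoter (-0.62, SE 0.13, adjusted p = 0.0069) and the Itga5 peak 26.8 kb upstream (-1.36, SE 0.38, adjusted p = 0.028). These organ contrasts share samples. Fibroblast markers were also highest in the pancreas groups. Summed endothelial counts (229 to 264 in Panc_OFF), leukocyte counts (184 to 281) and Prss2 (252 to 268) lay above those of Liv_OFF without overlap. The endothelial marker Tie1 went the other way, with means of 57.3 in Panc_OFF and 63.2 in Liv_OFF. The part of these cell types in the result was not tested.

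With Smad4 restored, the next question was whether the organs still differed. Between Liv_ON and Lung_ON 34 member peaks were lower and 2 higher in liver (35.8% of all peaks called, 18.2% lower and 17.6% higher), and the median was -1.09. Without Liv_ON replicate 2 the count was 16. The groups compared with Smad4 off and on share no samples, but both contrasts used the same spread estimate from all 16 samples. The 2 sets of calls are therefore not independent. In the same direction 34 peaks were called in both, which is 75.6% of the 45 called with Smad4 off and 94.4% of the 36 called with it restored. For all nuclear peaks the corresponding shares were 61.8% and 85.8%. Summed fibroblast marker counts overlapped between Liv_ON (146 to 254) and Lung_ON (196 to 230), with means of 200.1 and 211. Summed endothelial counts (120 to 144 against 175 to 275), leukocyte counts (188 to 249 against 349 to 410) and Prss2 (150 to 157 against 320.1 to 387) were lower in Liv_ON without overlap. The endothelial marker Tie1 went the other way, with means of 69.5 and 57.5. The part of these cell types in the restored contrast was not tested. The Col6a1 promoter read 229 and 125 in Liv_ON against 531, 633 and 677 in Lung_ON (log2 fold change -1.84, SE 0.24, adjusted p = 0.000106), and the liver samples remained below the lungs. The Has2 peak 80.4 kb upstream stayed high in liver, at 69.9 and 110 against 22.5, 18.2 and 6.53 (2.56, SE 0.47, adjusted p = 0.00103). Against Panc_ON, 51 members were lower and 4 higher in Liv_ON (59.4% of all peaks called, 32.2% lower and 27.1% higher; 36 members called without Liv_ON replicate 2), and 14 were lower and 3 higher in Lung_ON (27.8% of all peaks called, 14.9% lower and 12.8% higher).

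Restoration of Smad4 was then compared with Smad4 off within each organ. In the pancreas 1 of 71 member peaks rose and none fell, where 3.42% of all peaks were called, 0.364% higher and 3.06% lower. This was the broad Has2 peak 26.2 kb upstream, at 495, 512 and 539 in Panc_OFF against 842, 878 and 1170 in Panc_ON. All restored samples were above all Smad4-off samples, and the log2 fold change was 0.89 (SE 0.23, adjusted p = 0.0616). The call was lost when any of the 6 pancreas samples was left out. With a replicate block in the lungs, whose numbers paired, 2 member peaks were called, and the share of all peaks under it is not given.

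In the liver 4 member peaks rose and none fell, where 0.55% of all peaks were called, 0.462% higher and 0.0886% lower. The Ccn4 peak 21.6 kb upstream went from 2.47 and 4.18 to 28.0 and 14.2, a log2 fold change of 2.31 (SE 0.48, adjusted p = 0.0674), and the restored values were still below the 85.4, 90.1 and 85.8 of Lung_ON. The Ccn4 peak 13.3 kb upstream went from 29.6 and 33.4 to 116 and 84.3 (1.62, SE 0.38). Neither pair of groups overlapped. At Ccbe1 the peak 16.1 kb upstream went from 37.0 and 16.7 to 133 and 102 (2.17, SE 0.50), and the peak 36.1 kb upstream from 23.4 and 16.7 to 104 and 60.9 (1.95, SE 0.46), again without overlap. These last 3 had adjusted p of 0.0992, 0.096 and 0.0983, close to the threshold. Liv_ON replicate 1 had the higher value at all 4. With 2 samples per group the count moved with single libraries, from 0 without Liv_OFF replicate 1, Liv_ON replicate 1, Panc_OFF replicate 3 or Lung_ON replicate 2 or 3 to 14 without Liv_ON replicate 2, and it was 1 without Panc_OFF replicate 1 or 2, Panc_ON replicate 1 or 2, Liv_OFF replicate 2 or Lung_ON replicate 1, 7 without Lung_OFF replicate 1 and 13 without Lung_OFF replicate 2. With the replicate block in the lungs it was 7. The shares of all peaks above belong to the main fit, and those under these alternatives are not given. Where a liver sample was left out, its group held 1 sample, which was assumed to vary like the other groups.

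In the lungs 0 member peaks were called with limma, where 0.00366% of all peaks were called (0.00146% higher, 0.0022% lower). At an unadjusted p under 0.05 (limma) there were 18 members, where 7.11% of all peaks had such a p. With edgeR 0 members were called and with DESeq2 1, and the shares of all peaks under those tools are not given. Most log2 fold changes lay on the higher side. Of 71 members, 62 were positive in the lungs, 60 in the liver and 57 in the pancreas, with medians of 0.52, 0.76 and 0.37. Over all peaks 49.6%, 51.3% and 53.3% were positive, with medians of -0.0024, 0.018 and 0.038. Member replicates did not overlap, with restored above off, at 10 peaks in the lungs (5.89% of all peaks), 43 in the liver (21.6%) and 16 in the pancreas (12.2%). Peaks of a gene come from the same mice and are not independent, so these counts describe the members and are no test. The Has2 intron peak 8.8 kb downstream, for one, read 135, 183 and 241 in Lung_OFF and 337, 493 and 367 in Lung_ON, without overlap, at an adjusted p of 0.297 (log2 fold change 1.11, SE 0.26).

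**Figure D4:**
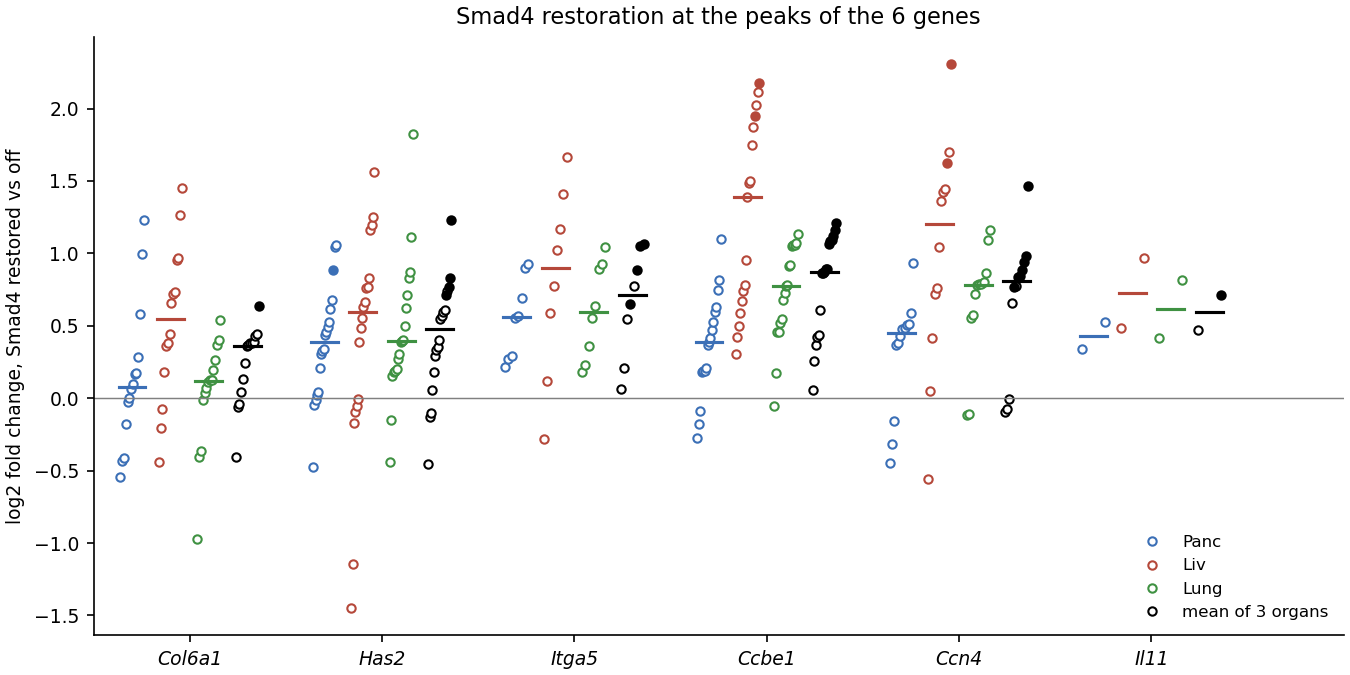
Log2 fold change of Smad4 restored over Smad4 off (y axis) for each member peak, by gene (x axis), in colours for the 3 organs and black for their mean, with filled points for called peaks and horizontal lines for medians. Most points lie above 0, and the Liv medians of Ccbe1 (1.39) and Ccn4 (1.20) are the highest.

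Averaged over the 3 organs, each weighted equally, 26 of 71 member peaks rose and none fell, where 6.62% of all nuclear peaks were called, 3.61% higher and 3% lower. The member median was 0.57, against 0.0088 over all peaks. Risen peaks numbered 9 of 17 at Ccbe1, 7 of 12 at Ccn4, 4 of 8 at Itga5, 4 of 18 at Has2, 1 of 14 at Col6a1 and 1 of 2 at Il11. Without Liv_ON replicate 1 the count was 11, and calls lost then included the Ccbe1 peak 7.3 kb upstream and the Il11 peak. Fibroblast markers did not move the same way, with summed means of 1115 off and 1105 restored for the pancreas, 194 and 200.1 for the liver, and 361 and 211 for the lungs. Prss2 did move the same way, at 252 to 268 off and 292 to 405 restored in the pancreas, 79.4 to 83.9 and 150 to 157 in the liver, and 181 to 253 and 320.1 to 387 in the lungs, without overlap in any of them. The other acinar markers Cpa1, Cela2a and Ctrb1 had no peak, and a part of such cells in the result was not tested. Ductal markers summed to 19223 and 14226, 45652 and 38774, and 23449 and 23761.

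The largest averaged change was at the Ccn4 peak 21.6 kb upstream (log2 fold change 1.47, SE 0.24, adjusted p = 0.00592). It read 22.2, 50.9 and 41.7 in Panc_OFF against 55.1, 60.7 and 103 in Panc_ON, and 44.2, 25.0 and 50.8 in Lung_OFF against 85.4, 90.1 and 85.8 in Lung_ON. In each organ every restored sample was above every Smad4-off sample. Further Ccn4 peaks that rose lay 23.8, 15.3, 13.3, 7.6 and 2.2 kb upstream and 2.4 kb downstream, by 0.77 to 0.98 on the log2 scale.

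At Itga5 the peak 4.3 kb upstream rose by 1.05 (SE 0.21, adjusted p = 0.013). It read 405, 572 and 544 in Panc_OFF against 973, 832 and 1076 in Panc_ON, 83.9 and 55.7 in Liv_OFF against 318 and 151 in Liv_ON, and 833, 263 and 463 in Lung_OFF against 833, 724 and 537 in Lung_ON. Groups were apart in the pancreas and liver and overlapped in the lungs, where 1 Smad4-off sample was about as high as the highest restored sample. The Itga5 peaks 26.8 and 12.0 kb upstream rose by 1.07 (SE 0.24) and 0.88 (SE 0.18), and the intron peak 8.0 kb downstream by 0.65 (SE 0.16).

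At Ccbe1 the peak 7.3 kb upstream of the start site rose most, by 1.21 (SE 0.32, adjusted p = 0.0409), followed by peaks 85.8 kb downstream (1.16, lost in 10 of 29 alternatives), 16.1 kb upstream (1.12), 31.2 kb downstream (1.09) and 36.1 kb upstream (1.09). The other risen Ccbe1 peaks, 43.8, 40.8 and 17.2 kb downstream in introns and 38.7 kb upstream, rose by 1.06, 0.89, 0.86 and 0.89 (adjusted p = 0.0765, 0.0594, 0.0836 and 0.0887). Their calls were lost in 11 of 29, 8 of 29, 17 of 28 and 18 of 29 alternatives in turn. At Has2 the intron peak 8.8 kb downstream rose by 0.77 (SE 0.16, adjusted p = 0.0153), with 80.2 and 75.2 in Liv_OFF against 189 and 171 in Liv_ON, while in the pancreas its values overlapped (336, 499 and 519 against 553, 509 and 300.5; log2 fold change -0.01). Peaks 26.2, 39.3 and 42.0 kb upstream rose by 0.72, 0.83 and 1.23. The Il11 peak 2.1 kb downstream rose by 0.71 (SE 0.18, adjusted p = 0.0345), and the Col6a1 peak 32.5 kb downstream by 0.64 (SE 0.21, adjusted p = 0.0885), a call lost in 17 of 29 alternatives. Calls at the Ccn4 peak 21.6 kb upstream, the Itga5 peaks 4.3 and 26.8 kb upstream and the Ccbe1 peaks 16.1 and 36.1 kb upstream and 31.2 kb downstream, 6 of the 26, held in each of the 29 alternatives.

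**Figure D5:**
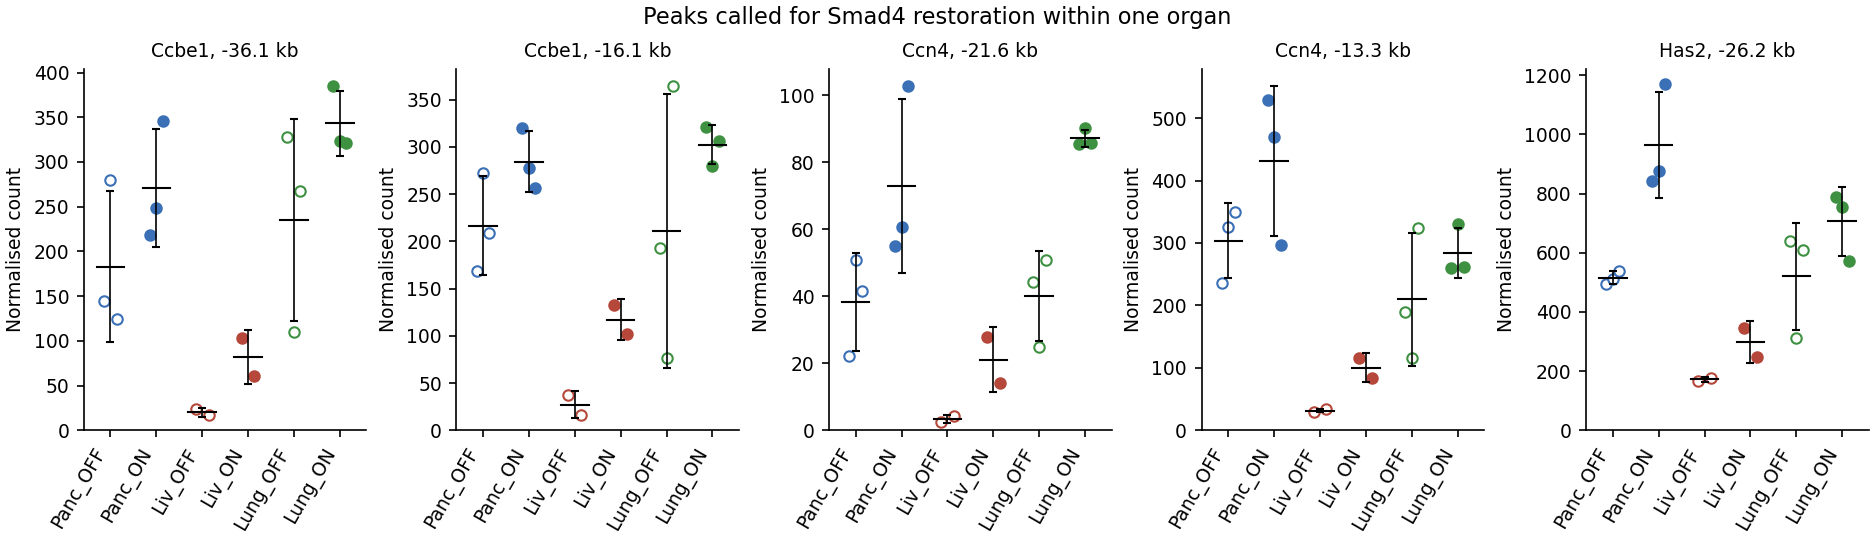
Normalised count (y axis) by group (x axis) at the 5 peaks called for restoration within an organ, 4 in the liver and the Has2 peak in the pancreas, with open points for Smad4 off, filled points for restored, horizontal bars for means and error bars of 1 SD. At the Ccn4 peak 21.6 kb upstream the filled points lie above the open points in each organ, and the liver points, 2.47 to 28.0, stay under the restored points of the other organs.

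No promoter peak was among these calls. Of 6, 0 were called on average with limma, with log2 fold changes from 0.21 at Itga5 to 0.66 at Ccn4. The Has2 promoter passed the adjusted p but not the fold threshold (0.33, SE 0.08, adjusted p = 0.031), and so did that of Il11 (0.47, SE 0.13, adjusted p = 0.0403). The Ccn4 promoter passed the fold threshold alone, and it and the Il11 promoter each gained a call in 4 of the 29 alternatives. Of the 26 risen peaks 20 held a SMAD match (76.9%) and 14 an AP-1 match (53.8%) in their central 300 bases, where members as a whole held 74.6% and 38.0%.

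Finally, the effect of restoration was compared between organs by interaction terms. With limma 0 member peaks and 0 of all nuclear peaks differed between liver and lung, liver and pancreas, or lung and pancreas. At an unadjusted p under 0.05 there were 5, 10 and 2 of the 71 member peaks, where 5.25%, 3.95% and 11% of all peaks had such a p, and neither edgeR nor DESeq2 called any member (0 each). A different response of these loci in liver and lung was thus not detectable with 2 and 3 samples per group.

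The summed normalised count over all peaks of a gene describes each locus as a whole. At Ccn4 the sums averaged 482 ± 111 in Liv_OFF (SD, n = 2), 1075 ± 603 in Liv_ON (n = 2), 1979 ± 752 in Lung_OFF (n = 3), 3102 ± 530 in Lung_ON (n = 3), 3301 ± 619 in Panc_OFF (n = 3) and 4558 ± 1215 in Panc_ON (n = 3). The Liv_OFF samples were the lowest of the 16, whereas Liv_ON (648 to 1501) overlapped with Lung_OFF (1338 to 2807). At Col6a1 the sums of the liver, 575 ± 7.23 off and 771 ± 210 restored, lay under all samples of the lungs, 2203 ± 267 and 2438 ± 194, and of the pancreas, 2649 ± 304 and 2840 ± 947. Restored and Smad4-off samples of one organ were close by comparison, and overlapped in the lungs and pancreas. At Itga5 the sums, off and restored, were 1494 ± 101 and 2095 ± 474 for liver, 3153 ± 955 and 4155 ± 492 for lung, and 3448 ± 360 and 4986 ± 287 for pancreas. At Has2, with peaks in both directions, Liv_OFF (3051 to 3333) and Lung_OFF (2882 to 3588) overlapped. Ccbe1 sums were lowest in Liv_OFF, at 571 ± 15.9, and 1123 ± 117 in Liv_ON, within the 690 to 1651 of Lung_OFF. The Il11 sums of Liv_OFF (368 to 538) lay under those of Lung_OFF (567 to 1149).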

How the data were processed

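Bulk ATAC-seq of 16 samples was analysed from 1 table of peaks. Sample titles gave the group and number of each. The unit deposited is a signal, a normalised count for each peak and sample. To make it, the authors ran trimGalore and cutadapt on the reads, mapped to mm10 (Bowtie2), used MACS2 and a blacklist to find peaks, joined those within 500 bp, counted with featureCounts and scaled with DESeq2 size factors. Tn5 shifting, duplicate removal, the filter named in the table's title and whether peak starts count from 0 or 1 are not given in the sources used here. One peak set serves all samples, so positions are fixed. Size factors assume that most peaks are stable. Of all peaks, 58.5% were called in Liv_OFF against Panc_OFF, 59.4% in Liv_ON against Panc_ON and 49.7% in Liv_OFF against Lung_OFF. The assumption is therefore uncertain for the liver contrasts. Table columns name doxycycline, read as Smad4 off, and lung columns name day 15 where the methods give 14 days.

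Whole reads were recovered for 100% of values (tolerance 0.01). The mitochondrial entry (1.43% to 3.56% of reads) was left out. Peaks were assigned with GENCODE vM21 basic and sequence came from GRCm38. Peaks were tested with limma 3.58.1 (R 4.3.3, trend and robust) on log2(normalised count + 1), which understates changes of low peaks, with 6 group means over all samples. Benjamini-Hochberg adjustment ran over 136630 peaks, and peaks were called at 0.58 or more (log2, either direction) with an adjusted p no higher than 0.1, as in the study's methods. In any sentence on a difference, the adjusted p is limma's unless another tool is named. The log2 fold changes of restoration were averaged over organs with equal weight, and interaction terms compared organs. edgeR 4.0.16 (quasi-likelihood) and DESeq2 1.42.0 on recovered reads were alternatives. Others were thresholds, pseudocount, scaling, GC correction, blocks, regional centring of member peaks (5 Mb) and leaving out each sample. The limma step was checked on simulated data.

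Same-numbered lung samples deviated together (correlations 0.491, 0.124 and 0.214), by the data and not by the labels. Those of the pancreas (-0.33, 0.027 and -0.33) and liver (0.083) did not. Replicates of a group differed beyond sampling noise (chi-square per degree of freedom 3.68 to 20.3). Text names, for each gene, the peak nearest the start site and that of highest mean, up to 3 non-overlapping peaks of largest change in Liv_OFF against Lung_OFF, and every peak called for restoration. Other named peaks were chosen after their values were seen. Pathway genes named are the 2 largest start-site changes per direction and list. Members and lists were chosen with earlier results of these data known. A further effector gene is not reported here.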

Additional observations from a re-analysis of the deposited data

Results flagged for a closer look

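At the Itga5 peak 22.1 kb upstream (chr15:103388539-103389108) all Panc_ON samples were above all Panc_OFF samples, and both Liv_ON samples were below both Liv_OFF samples. The log2 fold change of restoration was 0.294 in the pancreas and -0.285 in the liver, neither of which was called by limma. It was singled out because every replicate moved one way in one organ and the other way in the other. The interaction term of liver against pancreas made no call there.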

How the results depend on the processing

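The organ contrasts with Smad4 off kept their counts within 1.5 times under every alternative run, with leave-one-out ranges of 35 to 51 called member peaks for Liv_OFF against Lung_OFF, 53 to 59 for Liv_OFF against Panc_OFF and 11 to 19 for Lung_OFF against Panc_OFF. With Smad4 restored the ranges were 16 to 39 for Liv_ON against Lung_ON (16 without Liv_ON replicate 2), 36 to 56 for Liv_ON against Panc_ON (36 without Liv_ON replicate 2) and 12 to 24 for Lung_ON against Panc_ON, which gave 9 calls, out of fewer peaks, when start sites had to lie within 50 kb. Restoration in the pancreas, 1 call, ranged from 0 to 3 on leaving out a sample. It gave 0 with thresholds of 1 and 0.05 and with GC correction, 2 with the replicate block in every organ (with GC correction 2) and in the lungs only (with GC correction 3), and 3 with only the compared groups or with DESeq2. Restoration in the liver, 4 calls, ranged from 0 to 14 on leaving out a sample. It gave 0 with thresholds of 1 and 0.05, a pseudocount of 10, only the compared groups or edgeR, 1 with quantile normalisation, 2 with GC correction or regional centring, 2 with the replicate block in every organ (with GC correction 1), 7 with that in the lungs only (with GC correction 7) and 14 with DESeq2. Restoration in the lungs gave 0 on leaving out any sample and 1 with DESeq2. The average over organs, 26 calls, ranged from 11 (without Liv_ON replicate 1) to 29 and was 7 with thresholds of 1 and 0.05. It could not be computed from only the groups compared. The interaction terms gave 0 throughout, leaving out samples included. The log2 fold change of Liv_OFF over Lung_OFF was positive at the Has2 promoter with regional centring (0.24) and ranged from -0.11 to 0.039 on leaving out a sample, positive without Lung_OFF replicate 1 or 3. At the Ccbe1 promoter it was 0.34 with regional centring and ranged from -0.19 to 0.15, positive without Liv_OFF replicate 2 or Lung_OFF replicate 1 or 3. The cause of these shifts was not tested. Leaving out a liver sample left 1 in its group, assumed to vary like the others. Among single peaks, 1567 values kept side and direction, 207 lost a call, 13 gained one and 7 reversed. The replicate block otherwise changed no count by more than 1.5 times. Shares of all peaks are given for the main fit only. Whether a moved count concerns the members or calls over all peaks therefore cannot be told here. With 2 liver samples per group and 36 to 76 reads in a typical peak, small effects were not detectable, and p-values cover the spread between these mice only.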

Other observations

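Other genes of the same pathways were read with the same rule of assignment, 55 genes with 849 peaks. In Liv_OFF against Lung_OFF, where 49.7% of all nuclear peaks were called (22.9% higher, 26.8% lower), 126 of these peaks were higher and 320 lower in liver. The balance differed by list. Peaks of 15 other matrix and crosslinking genes were lower at 116 of 222 and higher at 11, with a median log2 fold change of -1.06. The largest start-site decreases were at Sparc, which encodes a collagen-binding matricellular protein, from 81.5 ± 42.5 in Lung_OFF (SD, n = 3) to 17.5 ± 3.13 in Liv_OFF (n = 2), and at Col6a2, a partner chain of Col6a1, from 447 ± 43.4 to 116 ± 24.3. The Col6a3 start-site peak was called higher in liver (log2 fold change 1.20), at normalised counts of only 6.28 ± 0.988 and 17.2 ± 10.6.

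Peaks of the TGF-β ligands, receptors and Smads were called at 116 of 247, 54 higher and 62 lower, with a median of -0.05. Here the largest start-site changes were increases in liver, at Smad2 (0.63) and at Ski, a repressor of SMAD transcription (0.60). Among 7 hyaluronan genes 40 of 81 peaks were lower and 11 higher. The synthase gene Has1 was lower (-1.92), and the hyaluronidase gene Hyal1 was higher (1.35), as was the peak nearest Hmmr, which lies 15044 bp from its start site (3.09). CCN family peaks were lower at 22 of 60 and higher at 6, led by Ccn6 (-2.77, 6279 bp from its start site) and Ccn5 (-1.36). Integrin peaks were lower at 43 of 147 and higher at 28, with Itgb3 (-1.49) and Itgb8 (-0.61) lower and Itgb6 (2.01) and Itga3 (0.76) higher at the start site. Cytokine and growth factor peaks were lower at 37 of 92 and higher at 16, although the start-site peaks of Pdgfb (0.74) and Pdgfa (0.68) were higher.

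On restoration averaged over organs, 6.62% of all nuclear peaks were called, 3.61% higher and 3% lower. For matrix and crosslinking 24 of 222 peaks were higher (10.8%) and 2 lower. For TGF-β ligands, receptors and Smads 19 of 247 were higher (7.69%) and 7 lower. Integrins gave 13 of 147 higher (8.84%) and 1 lower, and the CCN family 7 of 60 higher (11.7%) and 1 lower. Near the share of all peaks were hyaluronan, with 4 of 81 higher (4.94%) and 2 lower (2.47%), and cytokines and growth factors, with 3 of 92 higher (3.26%) and 0 lower.

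Start-site peaks of other genes were ranked by Pearson r of log2(normalised count + 1) with those of the members over the 16 samples, among 12896 start-site peaks, as a description. The most alike were Col6a2 (0.99), Ifitm1 (0.97) and Adcy7 (0.97) for Col6a1, Dnaja4, Fstl1 and Gja1 (0.97 each) for Ccn4, Ncam1 (0.93), Ifitm10 (0.92) and Pcdhb16 (0.91) for Has2, Col5a3 (0.93), Pde2a (0.92) and Crispld2 (0.91) for Itga5, Olfr49, Prss46 and Col7a1 (0.91 each) for Il11, and Btbd11 (0.80), Gm3045 (0.78) and Map6 (0.72) for Ccbe1. The 16 points share organs and Smad4 states in groups of 2 or 3 samples.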
